A study of Mus musculus with 8 samples.

Results

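Transcripts of 10 enzymes that remove superoxide and peroxides were followed in the lungs of mice treated with house dust mite extract (HDM), an allergen. The enzymes were 3 superoxide dismutases (Sod1, Sod2 and Sod3), catalase (Cat), 3 glutathione peroxidases (Gpx1, Gpx2 and Gpx3) and 3 peroxiredoxins (Prdx1, Prdx5 and Prdx6). They were found by matching the Entrez identifiers of the count table to these symbols, and all 10 were present among 23469 genes. The C57BL/6 mice were wild type (WT) or DDAH1-transgenic (TG), and each genotype received either HDM or PBS, giving the groups WT PBS, WT HDM, TG PBS and TG HDM. The HDM groups received 100 µg of Dermatophagoides pteronyssinus extract in 50 µl of PBS into the trachea, and the PBS groups received the same volume without extract. Instillations were given 3 times per week over 3 weeks, and lungs were taken 24 hours after the last one. The age and sex of the mice and the promoter of the transgene were not given in the sources used here. RNA from 4 mice was pooled in each group and sequenced as 2 libraries, so every spread below is that between 2 libraries of 1 pool, and no p-value covers variation between mice. With 2 libraries against 2, the smallest two-sided p of an exact permutation test is 0.333, and the p-values below come from a model fitted across all genes.

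Superoxide arises from NADPH oxidases and from respiration, and the dismutases convert it to hydrogen peroxide. Sod1 is the cytosolic copper and zinc enzyme, Sod2 the manganese enzyme of mitochondria, and Sod3 the secreted copper and zinc enzyme that binds extracellular matrix and is abundant in lung and vessel walls. Catalase breaks down hydrogen peroxide in peroxisomes. The glutathione peroxidases reduce peroxides with glutathione at a selenocysteine, with Gpx1 inside cells, Gpx2 mainly in epithelium and Gpx3 secreted. The peroxiredoxins use a reactive cysteine instead. Prdx1 is mainly cytosolic, Prdx5 lies in mitochondria, peroxisomes and cytosol, and Prdx6 also has phospholipase activity and is linked to surfactant turnover in alveolar type 2 cells. DDAH1 degrades asymmetric dimethylarginine, an inhibitor of nitric oxide synthases, and nitric oxide reacts with superoxide.

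The chemistry that separates these families is visible in single codons of their coding sequences. The stretches below were read 5′ to 3′ from the GENCODE M21 transcripts (build GRCm38.p6) and are shown because they carry the catalytic or metal-binding residue of each enzyme. In the first 3, capitals mark the TGA codon, which these messages read as selenocysteine instead of a stop, and each had 1 such codon in frame.
Gpx1 (chr9:108339436-108339468, exon 1, plus strand): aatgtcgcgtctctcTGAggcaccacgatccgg
Gpx2 (chr12:76795241-76795273, exon 1, minus strand): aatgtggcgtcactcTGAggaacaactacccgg
Gpx3 (chr11:54907241-54907273, exon 2, plus strand): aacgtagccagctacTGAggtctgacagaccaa
In the peroxiredoxins, capitals mark the codon of the peroxidatic cysteine, found as the only match to proline, 3 residues, threonine, 2 residues and cysteine.
Prdx1 (chr4:116691808-116691840, exon 3, plus strand): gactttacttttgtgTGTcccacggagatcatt
Prdx5 (chr19:6907665-6908005, exons 2 and 3 joined, minus strand): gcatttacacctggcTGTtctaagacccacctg
Prdx6 (chr1:161247353-161247385, exon 2, minus strand): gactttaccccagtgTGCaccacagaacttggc
In the copper and zinc dismutases, capitals mark a pair of histidine codons separated by 1 codon, which belong to the copper site.
Sod1 (chr16:90222831-90222869, exon 2, plus strand): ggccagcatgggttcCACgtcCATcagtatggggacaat
Sod3 (chr5:52368327-52368365, exon 2, plus strand): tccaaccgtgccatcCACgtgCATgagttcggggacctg
The same histidine codons, CAC and CAT, stood in both, at codon 47 of Sod1 and codon 128 of Sod3. The selenocysteine codon stood at position 47 in Gpx1, 40 in Gpx2 and 73 in Gpx3. The cysteine codon stood at position 52 in Prdx1, 96 in Prdx5 and 47 in Prdx6.

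The 10 genes differ widely in length. The chosen transcript of Sod1 (chr16:90220762-90226333, 5 exons) was the shortest, with 641 bases. Gpx2 (chr12:76792335-76795554) had 1067 bases, Gpx1 (chr9:108339080-108340342) 1072, Prdx5 (chr19:6906697-6910106) 1262 and Gpx3 (chr11:54902854-54910387) 1594. Prdx1 (chr4:116685599-116700000) had 2294 bases, Prdx6 (chr1:161240112-161251210) 2387 and Cat (chr2:103453904-103485153, 13 exons) 2613. Sod3 (chr5:52363804-52369738, 2 exons), with 3738 bases, and Sod2 (chr17:13007839-13018119), with 5861, were the longest. Some reads cannot be assigned to these genes with certainty. Of the stretches of 50 bases in the transcript, 23.1% occurred also in a processed pseudogene for Sod1 and 18.9% for Gpx2. For Prdx1 10.9% occurred in other genes, mostly in several processed pseudogenes. The shares here are of whole transcripts, and shares within the coding region, where the authors state that reads were counted, were not taken. Prdx5 overlaps Trmt112 on the opposite strand over 409 bases, 32.4% of its transcript, and the strand setting of the counting was not given in the sources used here. For Sod3, Cat, Gpx1 and Gpx3 no such stretch occurred elsewhere.

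The 8 libraries held between 5694928 and 11929374 counts, and the smallest was replicate 1 of TG HDM. Levels are given as CPM, counts scaled to a common library size. The most abundant entry took 8.58% and 9.37% of counts in TG HDM and between 14.8% and 21.8% in the other 6 libraries. Ddah1, the gene named in the genotype, stood at 47.8 and 34.3 CPM in WT PBS and 77.0 and 53.8 in TG PBS, and the libraries of these groups did not overlap. Under HDM it went against the label, with 43.1 and 44.7 CPM in WT HDM but 34.9 and 33.4 in the libraries labelled TG HDM. Neither difference passed the test (adjusted p = 0.358 and 0.637). Whether the counts include transcripts of the transgene is not given in the sources used here. Every direction below between genotypes under HDM therefore rests on the labels. Xist stood between 2049 and 3042 CPM in the 4 HDM libraries and between 11.3 and 20.8 CPM in the 4 PBS libraries, and 4 Y-linked genes passed the test in the opposite direction in both genotypes. HDM treatment and sex of the mice therefore cannot be told apart.

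Levels between genes were compared as CPM per kilobase of transcript. In WT PBS the order ran from Gpx3 at 311 ± 38.5 (SD, n = 2) through Prdx6 at 202 ± 15.2, Cat at 190 ± 4.09, Prdx1 at 153 ± 0.783 and Sod1 at 132 ± 17.4 to Sod3 at 81.7 ± 3.6. Prdx6 and Cat overlapped, and no other neighbours in this order did. The low end held Gpx1 at 34.3 ± 5.02, Sod2 at 24.8 ± 3.68, Prdx5 at 16.3 ± 4.48 and Gpx2 at 5.86 ± 2.43. The libraries labelled TG HDM had another order. Prdx1 led with 386 ± 41.2 CPM per kilobase, ahead of Sod1 at 193 ± 9.88, Gpx3 at 173 ± 48.3 and Prdx6 at 159 ± 31.3. From Sod1 down to Cat, at 113 ± 5.28, each neighbour overlapped the next. Sod3 had dropped to the eighth place, with 32.9 ± 4.55. The order depended on which length was used. The other scale was per kilobase of coding sequence, the region in which the authors state that reads were counted. On it WT PBS had Gpx3 at 728 and Prdx6 at 713, which overlapped. Then came Prdx1 at 586, Sod3 at 404, Cat at 313, Sod2 at 217 and Sod1 at 181, and the last 2 of these overlapped. On that scale Sod2 and Sod3 stood higher in the order, and Cat and Sod1 lower, than per kilobase of transcript. In TG HDM the coding scale again put Prdx1 first, at 1476, but Sod1, at 267, stood behind Prdx6 at 562 and Gpx3 at 406.

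**Figure D1:**
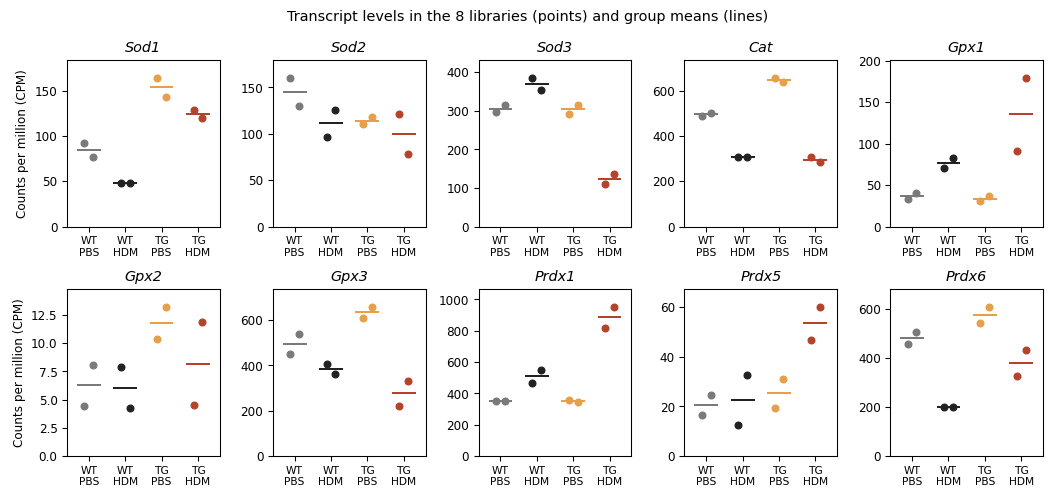
CPM (vertical axes, linear from 0) of the 10 enzymes in the 8 libraries, as 2 points per group with a line at the mean. Sod3 lay between 293 and 386 CPM in 6 libraries and at 111 and 135 CPM in TG HDM, and Prdx1 reached 819 and 952 CPM in TG HDM.

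The first comparison asked how the genotypes differed without allergen. Sod1 was the only one of the 10 enzymes to pass the test between TG PBS and WT PBS. Its level was 92.2 and 76.4 CPM in WT PBS and 164 and 142 CPM in TG PBS. The groups did not overlap, and the log2 fold change was 0.85 ± 0.17 (SE, adjusted p = 0.0237), a 1.81-fold higher level. Over all 14926 genes tested, 0.657% passed in either direction and 0.281% were higher in TG PBS. The call for Sod1 was lost with the replicate number as a block and with an offset for transcript length (log2 fold change 0.81, adjusted p = 0.0512). It was also lost when all 8 libraries entered one fit (0.86, adjusted p = 0.0605). Leaving out replicate 2 of WT PBS lost the call too, with a log2 fold change of 0.72.

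The other 9 enzymes did not pass in the PBS groups. Catalase was at 488 and 503 CPM in WT PBS and at 658 and 640.2 CPM in TG PBS, without overlap (log2 fold change 0.38 ± 0.11, adjusted p = 0.155). Gpx3, the secreted peroxidase, was at 453 and 539 CPM against 611 and 659 CPM (0.35 ± 0.12, adjusted p = 0.266). Prdx6 was at 456 and 507 CPM against 544 and 607 CPM (0.25 ± 0.12, adjusted p = 0.499). In these 3 genes both TG PBS libraries lay above both WT PBS libraries. Such a separation of 2 libraries from 2 has a two-sided p of 0.333 in an exact permutation test. The share of all genes that separate in this way was not taken. Sod3 did not separate the groups, with 296 and 315 CPM in WT PBS and 293 and 315 CPM in TG PBS. Sod2 lay the other way from Sod1, with 161 and 130.0 CPM in WT PBS above 110.4 and 118 CPM in TG PBS, without overlap (-0.36 ± 0.17, adjusted p = 0.484). Prdx1, at 353 and 351 CPM against 355 and 343 CPM, overlapped. The log2 fold changes were -0.02 ± 0.13 for Sod3 and -0.02 ± 0.12 for Prdx1. Markers of other tissues moved in this comparison. All 5 skeletal muscle markers passed as higher in TG PBS, where they summed to between 153 and 186 CPM, against 3.32 to 6.29 CPM in WT PBS. Hba-a1 and Hba-a2, which hold identical counts in every library, were counted once, a choice made after seeing the data, and 2 of 3 distinct erythroid markers passed as higher, with sums of 6244 to 6846 CPM against 3740 to 4292 CPM. Of 4 neutrophil markers, 2 passed as lower, with sums of 97.4 to 111 CPM against 276 to 285 CPM. Their part in the Sod1 difference was not tested.

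The second comparison set the libraries labelled TG HDM against WT HDM, the groups in which the study examined allergen-induced inflammation. Of the 10 enzymes, 3 were higher (Sod1, Prdx1 and Prdx6) and 1, Sod3, was lower. Over all 15191 genes tested, 2.44% passed, 1.84% as higher and 0.599% as lower. The median log2 fold change of the 10 was 0.66, against 0.01 over all genes. Of the 10 values, 6 lay above 0 and 4 below. Neither median takes account of transcript length, and over all genes of up to 1 kilobase the median was 0.70.

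Sod3, the extracellular dismutase, had the largest change of the 10. It stood at 386 and 355 CPM in WT HDM and at 111 and 135 CPM in TG HDM. The groups were far apart, with a log2 fold change of -1.55 ± 0.19 (adjusted p = 0.00169), so that TG HDM held 0.341 of the WT HDM level. Markers of 2 cell types that make Sod3 in lung were read beside it. The 4 smooth muscle markers summed to between 227 and 247 CPM in WT HDM and between 137 and 150.0 CPM in TG HDM, and the 4 alveolar type 2 markers to between 8645 and 10142 CPM and between 9719 and 14047 CPM. No marker of either list passed the test, and both lists were mixed. Of the smooth muscle markers, Acta2 (log2 fold change -0.92, adjusted p = 0.0669), Myh11 (-0.75) and Cnn1 (-0.18) were lower and Tagln (0.16) was higher. Of the alveolar type 2 markers, Sftpc was at 0.64 (adjusted p = 0.0826), Sftpb at -0.65 (adjusted p = 0.0890), and the median of the 4 was -0.08. Fewer cells of a type and less RNA per cell cannot be told apart in whole lung. The smooth muscle markers summed to between 128 and 131 CPM in TG PBS and between 184 and 198 CPM in WT PBS, where Sod3 levels overlapped. Outside these lists, 3 other cell type markers passed between TG HDM and WT HDM. Scgb3a2 of club cells was higher (2.92, adjusted p = 0.000132), as was the globin Hbb-bs (1.05, adjusted p = 0.0240), and Chil3 of alveolar macrophages was lower (-1.21, adjusted p = 0.00157). The other tested markers of the club, erythroid and alveolar macrophage lists did not pass. Scgb1a1 was at -0.02 and Cyp2f2 at 0.51, and Hba-a1 was at 0.16 and Alas2 at 0.09. Ear2 was at -0.76 and Marco at -0.50, but Siglecf was at 0.76. The part of all these cells in the differences of the 10 enzymes was not tested.

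Sod1, the cytosolic enzyme, moved the opposite way. It stood at 47.8 and 48.1 CPM in WT HDM and at 128 and 119 CPM in TG HDM. The log2 fold change was 1.41 ± 0.23 (adjusted p = 0.00817), 2.65-fold higher in TG HDM. Both TG HDM libraries also lay above both WT PBS libraries. Sod2, the mitochondrial enzyme, overlapped, with 96.9 and 125 CPM in WT HDM and 122 and 77.9 CPM in TG HDM (log2 fold change -0.12 ± 0.27).

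Among the enzymes that act on peroxides, Prdx1 and Prdx6 passed. Prdx1 was at 469 and 551 CPM in WT HDM and at 819 and 952 CPM in TG HDM, with a log2 fold change of 0.83 ± 0.17 (adjusted p = 0.0259). Prdx6 was at 201 and 198 CPM against 327 and 433 CPM, with a log2 fold change of 0.96 ± 0.19 (adjusted p = 0.0240). In both genes the groups did not overlap. Prdx5 was at 12.5 and 32.6 CPM in WT HDM and 46.9 and 60.1 CPM in TG HDM, which did not pass (1.29 ± 0.42, adjusted p = 0.144). Its WT HDM libraries were far apart, and the log2 fold change ran from 0.73 without replicate 1 of WT HDM to 2.14 without replicate 2. Gpx1 was at 71.0 and 83.0 CPM against 91.7 and 179.9 CPM (0.85 ± 0.29, adjusted p = 0.163), and its value fell to 0.30 without replicate 2 of TG HDM. Gpx3 was at 407 and 364 CPM against 222 and 331 CPM (-0.45 ± 0.21, adjusted p = 0.320). Catalase was at 309 and 307 CPM against 305 and 286 CPM, a log2 fold change of -0.02 ± 0.18. Gpx2, a low transcript with 30 to 153 counts per library, overlapped between groups in all comparisons but that of TG PBS with WT PBS, and passed in none.

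Without either one of the WT HDM libraries the calls of all 4 enzymes were lost, and 6 or 20 genes of the whole table still passed. The log2 fold changes themselves moved little, between -1.61 and -1.51 for Sod3 and between 1.38 and 1.42 for Sod1. The adjusted p-values of Sod3 were then 0.186 and 0.0932, and those of Sod1 0.317 and 0.204. Leaving out a TG HDM library kept the call of Sod3, with log2 fold changes of -1.44 and -1.69.

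**Figure D2:**
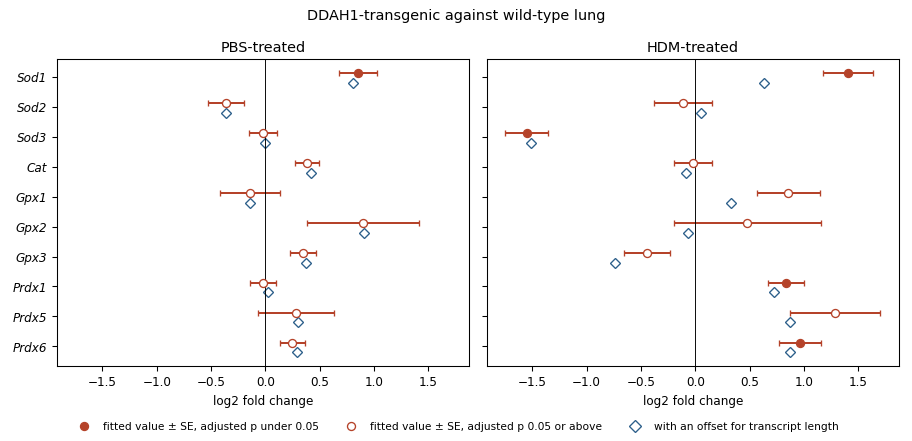
Log2 fold change between TG and WT (horizontal axis) of each enzyme under PBS and HDM, with bars of 1 SE, filled where the adjusted p-value was under 0.05, and diamonds for the value with an offset for transcript length. Under HDM the offset moved Sod1 from 1.41 to 0.63 and left Sod3 at -1.51.

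Short transcripts as a class were higher in TG HDM than in WT HDM. Across 14455 genes with a known transcript length, the Spearman correlation between length and log2 fold change was -0.28, against 0.01 between TG PBS and WT PBS. These are correlations across genes, which are not independent replicates. Transcripts of up to 1 kilobase, the class of Sod1, had a median log2 fold change of 0.70, and 12.8% of them passed as higher. Between 1 and 2 kilobases, where Gpx1, Gpx2, Gpx3 and Prdx5 lie, the median was 0.30 and 2.82% passed as higher. Between 2 and 4 kilobases, the class of Prdx1, Prdx6, Cat and Sod3, the median was 0.02 and 0.811% passed as higher, and above 4 kilobases the median was -0.18.

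Fitting an offset for length in each library separated the enzymes. Sod3 kept its call with an offset for transcript length (log2 fold change -1.51, adjusted p = 0.00325) and with one for coding length (-1.77, adjusted p = 0.00108). Sod1 lost it with both (0.63, adjusted p = 0.246, and 0.99, adjusted p = 0.0588). Prdx1 and Prdx6 kept theirs with transcript length (0.73, adjusted p = 0.0480, and 0.87, adjusted p = 0.0489) and lost them with coding length (0.54, adjusted p = 0.114, and 0.71, adjusted p = 0.0869). The difference of Sod1 in the PBS groups, where no such trend was seen, changed little with the offsets, to 0.81 with transcript length and 0.82 with coding length (adjusted p = 0.0311). Prdx5 and Gpx1 fell to 0.87 and 0.33 with transcript length.

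**Figure D3:**
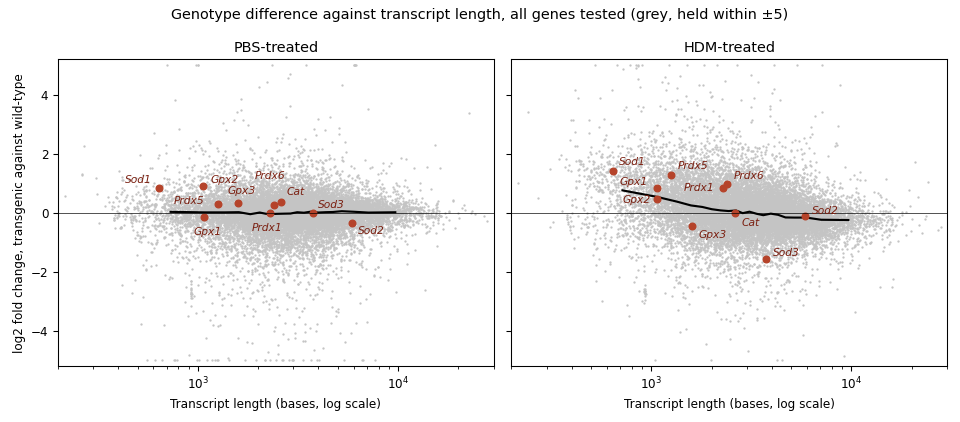
Log2 fold change between TG and WT against transcript length (bases, log axis) for all genes tested (grey), with the 10 enzymes in red and a black line through the medians of groups of genes of like length. Under PBS the line stays near 0, and under HDM it falls from short to long transcripts, with Sod1 at the short end and Sod3 well below the line.

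Whether the genotype difference itself differed between HDM and PBS was tested on all 8 libraries. Sod3 was the only one of the 10 to pass, with a difference of log2 fold changes of -1.58 ± 0.23 (adjusted p = 0.000697). Over all 15868 genes tested, 1.76% passed and 0.706% passed in the direction of Sod3. The call held with both length offsets and without any 1 library, with values from -1.74 to -1.45 when a library was left out. Prdx1 was next, at 0.81 ± 0.20 (adjusted p = 0.0517), and Gpx3 followed at -0.84 ± 0.25 (adjusted p = 0.101). With an offset for transcript length Gpx3 passed, at -1.14 (adjusted p = 0.0104), and Prdx1 did not, at 0.68 (adjusted p = 0.0925). For Sod1 the genotype difference was not shown to differ between the treatments (0.50 ± 0.28, adjusted p = 0.427), and the sign turned with the offset (-0.24). The HDM and PBS libraries also differ in Xist and Y-linked genes, so that this test mixes treatment with sex.

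In wild type mice, 5 of the 10 enzymes differed between HDM and PBS, 2 as higher and 3 as lower, against 6.74% of all 15123 genes tested (4.44% higher and 2.3% lower). Prdx6 fell most, from 456 and 507 CPM to 201 and 198 CPM (log2 fold change -1.27 ± 0.13, adjusted p = 2.23e-05). Catalase fell from 488 and 503 CPM to 309 and 307 CPM (-0.69 ± 0.12, adjusted p = 0.00289), and Sod1 from 92.2 and 76.4 CPM to 47.8 and 48.1 CPM (-0.81 ± 0.21, adjusted p = 0.0311). Gpx1, the cellular glutathione peroxidase, rose from 33.0 and 40.6 CPM to 71.0 and 83.0 CPM (1.06 ± 0.23, adjusted p = 0.0112). Prdx1 rose from 353 and 351 CPM to 469 and 551 CPM (0.53 ± 0.13, adjusted p = 0.0198). None of these 5 pairs of groups overlapped. Sod3 was at 296 and 315 CPM in WT PBS and 386 and 355 CPM in WT HDM (0.28 ± 0.13, adjusted p = 0.240). Leaving out replicate 1 or 2 of WT PBS left 2 or 3 of the 10 past the threshold, Prdx6 and Cat in both cases.

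In the DDAH1-transgenic mice, 6 of the 10 differed between HDM and PBS, 3 as higher and 3 as lower, against 13.8% of all 15086 genes tested (8.43% higher and 5.35% lower). Prdx1 rose from 355 and 343 CPM to 819 and 952 CPM (1.36 ± 0.17, adjusted p = 0.000330), and Gpx1 from 30.8 and 36.5 CPM to 91.7 and 179.9 CPM (2.03 ± 0.31, adjusted p = 0.00149). Prdx5 rose from 19.4 and 31.1 CPM to 46.9 and 60.1 CPM (1.11 ± 0.33, adjusted p = 0.0459), a call that was lost with an offset for transcript length (0.51, adjusted p = 0.387). Sod3 fell from 293 and 315 CPM to 111 and 135 CPM (-1.28 ± 0.20, adjusted p = 0.00149). Catalase fell from 658 and 640.2 CPM to 305 and 286 CPM (-1.11 ± 0.17, adjusted p = 0.00151), and Gpx3 from 611 and 659 CPM to 222 and 331 CPM (-1.18 ± 0.20, adjusted p = 0.00269). Sod1 was at 164 and 142 CPM in TG PBS and 128 and 119 CPM in TG HDM (-0.28 ± 0.21, adjusted p = 0.419). With an offset for transcript length this value became -1.34 (adjusted p = 0.00269). Transcripts of up to 1 kilobase had a median log2 fold change of 1.00 in this comparison, and 29.4% of them passed as higher. Prdx6 was at 544 and 607 CPM against 327 and 433 CPM (-0.58 ± 0.18, adjusted p = 0.0574), without overlap, and it passed as lower in 9 of 12 alternative settings. Without either one of the TG PBS libraries, only Prdx1 of the 10 passed.

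The WT and TG comparisons of HDM with PBS use different libraries, but each shares its groups with the comparisons between genotypes. Catalase fell and Prdx1 and Gpx1 rose in both, while Prdx6 and Sod1 passed in WT, and Sod3, Gpx3 and Prdx5 in TG. Of these 5, Sod3 alone passed the test of the difference, and Prdx6 and Sod1 were lower in TG too under some settings. Cell type markers moved as well. The 3 club cell markers summed to between 29265 and 36624 CPM in WT PBS and between 10802 and 12698 CPM in WT HDM, and all 3 passed as lower. In TG, Scgb1a1 (-1.95) and Cyp2f2 (-1.68) passed as lower but Scgb3a2 as higher (0.72, adjusted p = 0.0263), and for Scgb3a2 the test of the difference was passed (2.68, adjusted p = 9.65e-06). The 4 alveolar macrophage markers summed to between 439 and 456 CPM in WT PBS, 9107 and 9431 CPM in WT HDM, 576 and 587 CPM in TG PBS, and 3393 and 4480 CPM in TG HDM. These sums were carried by Chil3 and Ear2. With HDM in WT, Chil3 (4.59) and Ear2 (1.84) passed as higher, while Marco (-2.32, adjusted p = 0.0760) and Siglecf (-0.51, adjusted p = 0.605) did not pass, and in TG Chil3 (2.93) passed. The alveolar type 2 markers summed to between 12661 and 12907 CPM in WT PBS and between 8645 and 10142 CPM in WT HDM. Of the 4, Sftpc alone passed as lower. In TG they summed to between 14347 and 18723 CPM with PBS and between 9719 and 14047 CPM with HDM. There Sftpb alone passed as lower (-0.92, adjusted p = 0.00557), and it passed the test of the difference (-0.91, adjusted p = 0.0327). Eosinophil markers summed to between 0.300 and 13.1 CPM over the libraries. Ccr3 passed as higher in WT (4.56, adjusted p = 0.0494) and Prg2 in TG (4.18, adjusted p = 0.0143). Of the 3 distinct erythroid markers, 2 passed as lower in WT and 3 in TG, to sums of 1447 to 1855 CPM in WT HDM and 1784 to 2598 CPM in TG HDM. Neutrophil markers summed to between 112 and 117 CPM in WT HDM and between 112 and 147 CPM in TG HDM, with 3 of 4 passing as lower in WT and 1 of 4 as higher in TG. Skeletal muscle markers summed to between 82.8 and 83.0 CPM in WT HDM and between 39.7 and 46.5 CPM in TG HDM, with 4 of 5 passing as higher in WT and 2 of 5 as lower in TG. The part of these cells in the changes of the 10 enzymes was not tested.

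**Figure D4:**
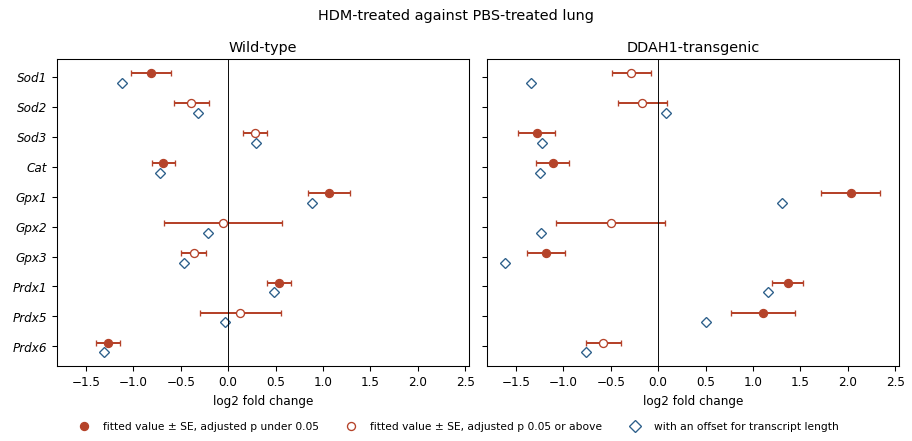
Log2 fold change between HDM and PBS (horizontal axis) of each enzyme in wild type and DDAH1-transgenic mice, with bars of 1 SE, filled where the adjusted p-value was under 0.05, and diamonds for the value with an offset for transcript length. Gpx1 and Prdx1 lie above 0 and Cat below 0 in both panels, and Sod3 is far below 0 in the transgenic panel alone.

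Ratios of counts within a library do not depend on its scaling, but they do depend on any trend with length. The ratio of Sod3 to Sod1 was 3.21 and 4.12 in WT PBS, 8.08 and 7.37 in WT HDM, 1.78 and 2.21 in TG PBS, and 0.863 and 1.13 in TG HDM. The 4 groups did not overlap, and both WT groups lay above both TG groups. Sod1 is the shortest and Sod3 the second longest of the 10 transcripts. Offsets for length were tried after seeing the data. With one for transcript length, the ratio was 1.45 and 1.70 in TG PBS, which overlapped 1.40 and 2.07 in TG HDM. It stayed higher in WT, at 2.39 and 3.30 under PBS and 7.12 and 7.50 under HDM. With one for coding length, TG PBS, at 1.72 and 2.13, did not overlap TG HDM, at 0.972 and 1.29. WT was again higher, at 2.97 and 3.90 under PBS and 7.71 and 7.37 under HDM. The ratio of Cat to Prdx1, the peroxisomal enzyme over the cytosolic peroxiredoxin, was 1.38 and 1.43 in WT PBS and 1.85 and 1.87 in TG PBS. It fell to 0.658 and 0.558 in WT HDM and to 0.373 and 0.300 in TG HDM. The ratio of Prdx1 to Prdx6 lay between 0.564 and 0.774 in the PBS libraries and between 2.20 and 2.78 in the HDM libraries, and it overlapped between genotypes under HDM. Gpx3 counts were 13.3 to 19.9 times those of Gpx1 under PBS, 4.38 and 5.74 times in WT HDM, and 1.84 and 2.42 times in TG HDM.

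**Figure D5:**
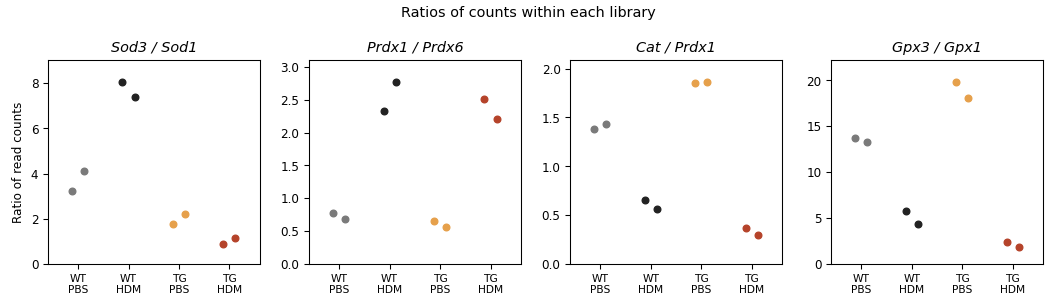
Ratios of read counts of 4 pairs of enzymes within each of the 8 libraries (vertical axes, linear from 0; 2 points per group). The ratio of Sod3 to Sod1 is highest in WT HDM, at 7.37 and 8.08, and lowest in TG HDM, at 0.863 and 1.13, before any offset for length.

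Other genes of the pathway were read in 6 lists with 67 genes. Between TG PBS and WT PBS, 3 of 58 tested passed, against 0.657% of all genes. Cybb, the catalytic subunit of the phagocyte NADPH oxidase that makes superoxide, was at 186 and 237 CPM in WT PBS and 102 and 96.8 CPM in TG PBS (log2 fold change -1.10 ± 0.16, adjusted p = 0.00116). Hmox1, the inducible heme oxygenase and a target of the transcription factor Nrf2, was at 35.1 and 61.6 CPM against 12.4 and 19.5 CPM (-1.61 ± 0.34, adjusted p = 0.0259). Selenop, the secreted selenium carrier that supplies selenoproteins, was higher, at 953 and 980.5 CPM against 1281 and 1367 CPM (0.44 ± 0.09, adjusted p = 0.0340). In none of the 3 did the groups overlap.

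Under HDM, 3 of 58 genes of these lists also passed between the genotypes, 2 as higher and 1 as lower, against 2.44% of all genes (1.84% higher and 0.599% lower). Gpx4, the glutathione peroxidase that reduces lipid peroxides in membranes, was at 26.3 and 44.1 CPM in WT HDM and 86.5 and 87.2 CPM in TG HDM (1.34 ± 0.30, adjusted p = 0.0382). Glrx5, a mitochondrial glutaredoxin of iron and sulfur cluster assembly, was at 4.29 and 3.52 CPM against 20.2 and 18.3 CPM (2.34 ± 0.50, adjusted p = 0.0332). Me1, the malic enzyme that supplies NADPH, was lower, at 166 and 148 CPM against 81.7 and 81.6 CPM (-0.90 ± 0.21, adjusted p = 0.0468). With an offset for transcript length, tried for these genes after seeing the data, none of the 3 calls held. The transcript of Gpx4 has 959 bases, and its value became 0.79 (adjusted p = 0.240). Those of Glrx5 (2.31, adjusted p = 0.0536) and Me1 (-0.90, adjusted p = 0.0704) hardly moved. An offset for coding length gave 1.05 for Gpx4 (adjusted p = 0.105) and -0.87 for Me1 (adjusted p = 0.0658). Glrx5, with a coding length of 459 bases, fell to 1.91 (adjusted p = 0.0869). Cybb, at 488 and 459 CPM in WT HDM and 537 and 498 CPM in TG HDM, did not pass. The genotype difference of Cybb differed between HDM and PBS (1.22 ± 0.23, adjusted p = 0.00601), as did that of Hmox1 (1.96 ± 0.49, adjusted p = 0.0475). They were the only ones of 58 genes to pass that test, which 1.76% of all genes passed. With the offset for transcript length, Cybb kept its call (1.38, adjusted p = 0.00135) and Hmox1 did not (1.67, adjusted p = 0.122).

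Between HDM and PBS, 8 of 58 pathway genes passed in wild type mice (6 higher and 2 lower), against 6.74% of all genes. In DDAH1-transgenic mice 17 of 57 passed (12 higher and 5 lower), against 13.8%. The Spearman correlation of length and log2 fold change across genes was -0.13 in wild type and -0.33 in DDAH1-transgenic mice. Of transcripts up to 1 kilobase, 8.29% and 29.4% passed as higher. The calls of these lists were not read with an offset for length. By list, 3 of 11 genes tested that make superoxide or peroxide passed in wild type mice (2 higher) and 6 of 10 in DDAH1-transgenic mice (5 higher). Of 18 genes of thioredoxin and glutathione recycling, 2 and 3 passed, all as higher. Of 12 genes of Nrf2, its partners and its targets, 2 and 3 passed, in mixed directions. Of 9 genes of selenoprotein synthesis and supply, 2 passed in DDAH1-transgenic mice, both as lower. Of 8 other family members tested, 1 and 3 passed, all as higher. The leukocyte and airway peroxidases Mpo, Epx and Lpo were at 0 counts, apart from a trace of Epx in replicate 2 of TG HDM, and were not tested.

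The antioxidant response element, the site bound by Nrf2 with small Maf proteins, was searched by its core letters TGACNNNGC on both strands. RefSeq promoter windows (GRCm38.p6, from 250 bases before to 50 bases after the start) were at hand for 8 of the 10 genes, all but Sod3 and Prdx6. The core occurred in 2 of them, Prdx1 and Sod1, against 14.0% of the 27025 genes with a window and 12.4% of all 32851 windows. Both matches were on the strand opposite to the gene. They are shown as the only matches among the 8 genes, with the core in capitals.
Prdx1 (chr4:116685446-116685494, core 133 to 125 bases before the start): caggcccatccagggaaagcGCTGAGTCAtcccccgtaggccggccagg
Sod1 (chr16:90220686-90220734, core 56 to 48 bases before the start): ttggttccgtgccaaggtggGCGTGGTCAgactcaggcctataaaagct
A match of letters is a description of sequence and not a site of binding.

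The genes whose log2 CPM over the 8 libraries ran most like that of Sod3, among 15867 others, were R3hdm2 (Pearson r = 0.98), Hspg2 (0.98), which encodes the basement membrane proteoglycan perlecan, and Pa2g4 (0.97). For Sod1 they were Igfbp2 (0.96), an insulin-like growth factor binding protein, Pim3 (0.95), a kinase, and Eva1b (0.95). Among the 10 enzymes themselves, the closest pair was Gpx1 and Prdx1 (r = 0.95), followed by Cat and Gpx3 (0.87) and by Sod1 and Prdx6 (0.81). The most opposed pairs were Cat with Gpx1 (-0.90) and Gpx3 with Prdx1 (-0.87). These values describe 8 libraries from 4 pools that share treatment, sex markers and depth.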

How the data were processed

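Lung RNA of the 4 groups was amplified by the authors from 10 ng, sequenced as single reads and aligned to mm10 with TopHat. The deposited values are raw read counts, which the authors state were summed over coding regions with ShortRead and custom R programs. The study's gene lists also hold Neat1, named there as non-protein coding, so the counts were not limited to coding regions. Which of the lengths fits the counts better was not tested. Tool versions beyond CASAVA 1.8 and the strand setting are not given in the sources used here. Libraries were grouped by their labels. The members, the lists and the rule for named genes (the 10 enzymes, pathway genes past the threshold between genotypes, and the 3 genes nearest in pattern to Sod1 and Sod3) were chosen with earlier results of these data known.

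Counts were tested with edgeR's quasi-likelihood test (edgeR 4.0.16, R 4.3.3; TMM normalization; filterByExpr with a count minimum of 10) on the 4 libraries of a comparison, or on all 8 for the difference of genotype effects. P-values were two-sided, adjusted by Benjamini-Hochberg over all genes tested, with a threshold of 0.05. The standard error was the size of the log2 fold change over the square root of F. CPM used TMM sizes of all 8 libraries, and log2 CPM a prior count of 2. Gene names and positions came from RefSeq for 23372 identifiers, and transcript length from GENCODE M21 for 21146. The length offset came from a loess curve (span 0.5) of each gene's deviation from its mean over the libraries on log2 length. Replicate libraries were distinct, with a mean chi-square per gene of 13.5 to 29.5, where 1 would mean the same library. All 10 enzymes passed the low-count filter in every comparison. The test was also tried on simulated counts, and the outcome is not reported here. Alternatives were another scaling (RLE), another tool (DESeq2 1.42.0), testing without a filter on low counts, a replicate block, offsets for transcript and coding length, 1 fit of all libraries, and leaving out each library.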

Additional observations from a re-analysis of the deposited data

Results flagged for a closer look

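The genotype difference of Sod3 under HDM differed from that under PBS by -1.58 ± 0.23 on the log2 scale (edgeR's quasi-likelihood test on 8 libraries, adjusted p = 0.000697). In PBS-treated mice the libraries of the genotypes overlapped (296 and 315 CPM in WT PBS, 293 and 315 CPM in TG PBS). In HDM-treated mice both libraries labelled TG HDM, at 111 and 135 CPM, lay below both WT HDM libraries, at 386 and 355 CPM. The 4 groups are 4 pools of mice, and HDM libraries differ from PBS libraries in markers of sex as well as in treatment.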

How the results depend on the processing

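The 10 enzymes past the threshold numbered 1 between TG PBS and WT PBS. The count was 2 with DESeq2, which added Cat, and 0 with the replicate block, with the transcript-length offset or with all 8 libraries in one fit. Between TG HDM and WT HDM it was 4, with 3 under the transcript-length offset, which lost Sod1, and 1 with the coding-length offset. There Prdx5 passed in 4, Gpx1 in 2 and Gpx3 in 2 of 12 alternatives. For the difference of genotype effects it was 1, with 2 under RLE, both length offsets and the transcript-length offset with replicate block, and 3 under DESeq2, no low-count filter or the replicate block. Among all genes, TG PBS against WT PBS gave 98 calls, with 223 by DESeq2, 306 without the filter and 46 with the block. TG HDM against WT HDM gave 370, with 922 by DESeq2, 1055 without the filter, 625 with the block, 168 and 206 with the transcript and coding offsets, 568 with offset and block, and 771 from all 8 libraries. WT HDM against WT PBS gave 1020, and 1588 without the filter. The difference of genotype effects gave 279, with 680 by DESeq2 and 675 without the filter.

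Same-numbered libraries did not deviate together over all genes (correlations from -0.021 to 0.017). A pairing that touches only some genes cannot be seen this way. Leaving out 1 library gave 0 to 1 enzymes in the PBS groups, 0 to 6 in the HDM groups, 2 to 6 for HDM in WT, 1 to 6 for HDM in TG and 1 to 4 for the difference of genotype effects. The counts of all genes were then 75 to 432, 6 to 1595, 652 to 1661, 277 to 2676 and 138 to 723, in the same order. A group left with 1 library takes its spread from the other group.

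Signs turned for values that did not pass the test. With the transcript-length offset, alone and with the block, these were Prdx1 in the PBS groups (0.021, 0.021), Sod2 (0.051, 0.027) and Gpx2 (-0.070, -0.11) in the HDM groups, Prdx5 for HDM in WT (-0.034, -0.14), Sod2 for HDM in TG (0.083, 0.047), and Sod1 in the difference of genotype effects (-0.24, -0.26). Sod2 turned there with the coding-length offset (-0.041). Leaving out libraries, signs turned in the PBS groups for Sod3 (-0.060 to 0.041), Gpx1 (-0.27 to 0.012), Prdx1 (-0.039 to 0.016) and Prdx5 (-0.087 to 0.59), and in the HDM groups for Sod2 (-0.49 to 0.18), Cat (-0.089 to 0.036) and Gpx2 (-0.38 to 0.99). They also turned for HDM in WT for Gpx2 (-0.57 to 0.44) and Prdx5 (-0.73 to 0.66), for HDM in TG for Sod2 (-0.55 to 0.11) and Gpx2 (-1.37 to 0.0087), and in the difference of genotype effects for Sod2 (-0.16 to 0.47) and Gpx2 (-1.34 to 0.058). The causes were not tested.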
